A study of Mus musculus with 9 samples.

Results

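Hyaluronan is a long, unbranched sugar polymer that is spun out through the plasma membrane by the Has synthases and fills the space between migrating cells with water. Proteoglycans of the lectican family, such as versican and aggrecan, bind along the chain and are locked onto it by link proteins, while Cd44 is the main receptor that ties the chain to the cell surface and hyaluronidases cut it for turnover. In the developing eye, neural crest cells move through a hyaluronan-rich matrix before they settle between the surface ectoderm and the lens and build the cornea, whose mature stroma is instead a compact array of collagen and small proteoglycans.

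The transcripts described here are those of 9 genes that make, bind or degrade hyaluronan, of 19369 genes listed in at least 1 sample. They were chosen by name and role, with earlier results of these data known, and all 9 were found by their Entrez Gene identifiers. They are the synthases Has1, Has2 and Has3, the lecticans Vcan (versican) and Acan (aggrecan), the link protein gene Hapln1, the receptor gene Cd44 and the hyaluronidases Hyal1 and Hyal2. Polyadenylated RNA was sequenced from untreated wild-type C57BL/6 mouse embryos, in 3 samples at each of 3 stages. The E10.5 samples were periocular neural crest (pNC), freed of ectoderm, lens vesicle and optic cup after a short warm incubation in the enzyme dispase. The E14.5 and E16.5 samples were whole corneas, for which the authors describe dissection only. Every sample pooled tissue from several embryos, and the E10.5 tissue held no surface ectoderm while the corneas held epithelium, stroma and endothelium together. Stage, tissue and the dispase step therefore changed together between E10.5 and the later samples, and their parts cannot be told apart. In bulk tissue, fewer cells of a type and less RNA per cell cannot be told apart either.

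Totals of expected counts, the estimated number of fragments per gene, ran from 8745161 to 9069023 per sample. The summed FPKM (fragments scaled to transcript length and to the mapped fragments of the sample) of 8 corneal epithelial markers ran from 33.2 to 44.6 in pNC, from 659 to 2134 in the E14.5 corneas and from 5270 to 7623 in the E16.5 corneas. Sums over 6 keratocyte markers ran from 87.4 to 132, from 2108 to 5481 and from 8386 to 10117. Of 7 markers of periocular crest mesenchyme, whose sums ran from 289 to 335, from 175 to 252 and from 148 to 186, Alx1 lay between 43.4 and 62.5 FPKM in pNC and at 0.09 or less in the E16.5 corneas, and Alx4 between 60.3 and 71.1 and between 2.63 and 4.92. Twist1, which made up most of the corneal sums, lay between 117 and 157 in pNC and between 124 and 156 in the E16.5 corneas. Sums over 3 embryonic globin genes ran from 3887 to 6113 in pNC and reached at most 645 and 7.42 in the E14.5 and E16.5 corneas, and the part of these changes in tissue make-up in the results below was not tested. No marker of these lists was at 0 in all samples of a stage. Replicate 1 of E14.5 stood apart from the other 2 E14.5 samples: its epithelial sum was 2134 against 659 and 782, and its keratocyte sum was 5481 against 2108 and 3041. Of the 9 hyaluronan genes, 6 were higher in this library than in both other E14.5 samples. Of the others, 1 (Hapln1) was lower than both and 2 lay between them. The same count was not made for all tested genes, so 6 of 9 has no reference beside it. The margins differed: Hyal1 was at 9.88 FPKM against at most 9.61, and Cd44 at 5.88 against at most 2.67. Has1, also among the 6, had too few counts to be tested. Results whose call rests on this library are given with and without it.

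Versican transcripts are shown first, since Vcan was the most abundant of the 9 genes at E10.5 and is made in forms that differ in how much sugar they can carry. In the GENCODE annotation of GRCm38, the longest Vcan transcript has 12427 bases and the next has 8332 bases. Both have the same large coding exon of 5217 bases, chr13:89688285-89693501 on the minus strand, and only the longest has the coding exon of 2880 bases at chr13:89702918-89705797. These are the exons that encode the stretches to which chondroitin sulfate chains are attached. Vcan has 5 transcripts, and the others, of 5702, 2321 and 2273 bases, were not compared for these exons and may share either junction. The mean transcript length given below covers all 5. The lines that follow give the junction that separates the 2 longest transcripts from each other. The 20 last bases of the shared exon at chr13:89712205-89712498 are in lower case and the first 20 bases of the next exon in capitals.
Vcan-203, longest transcript: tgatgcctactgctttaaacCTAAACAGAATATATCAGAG
Vcan-206, next transcript: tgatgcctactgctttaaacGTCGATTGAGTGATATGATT

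Promoter sequences of Vcan and Cd44 are shown because Vcan had the highest E10.5 level of the 9 genes and Cd44 the highest log2 fold change of those tested. Of the 9 genes, 7 had an entry in the RefSeq promoter table (GRCm38.p6). Each line gives the 250 bases before the start site used in that table, 5′ to 3′ on the strand of the gene. Capitals mark matches on either strand to any of 3 short motifs. The GC box was searched as GGGCGG. The TATA box was searched as TATAAA. The CCAAT box was searched as the letters of its name.
Vcan, chr13:89742513-89742762, minus strand: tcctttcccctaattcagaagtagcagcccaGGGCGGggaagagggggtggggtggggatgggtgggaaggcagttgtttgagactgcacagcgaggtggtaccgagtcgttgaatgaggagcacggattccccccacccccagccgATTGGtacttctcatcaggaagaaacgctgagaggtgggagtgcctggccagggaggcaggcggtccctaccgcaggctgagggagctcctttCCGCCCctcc
Cd44, chr2:102901666-102901915, minus strand: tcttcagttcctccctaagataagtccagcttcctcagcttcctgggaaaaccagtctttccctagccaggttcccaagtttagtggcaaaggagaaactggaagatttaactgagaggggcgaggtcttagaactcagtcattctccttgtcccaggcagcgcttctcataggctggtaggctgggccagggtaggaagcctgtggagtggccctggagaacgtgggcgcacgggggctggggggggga

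The Vcan window held 2 GC boxes and 1 CCAAT box, and the Cd44 window held no match to any of the 3 motifs. Over all 32817 promoter entries, 32.7% held a GC box, 33.8% a CCAAT box and 12.4% a TATA box, so such matches are common. GC content was 62.4% in the Vcan window and 56.4% in the Cd44 window, against a median of 52.4% over all entries. The Vcan window lies inside the RefSeq span of the gene. These matches describe the letters in these windows and were not measured as binding sites.

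**Figure D1:**
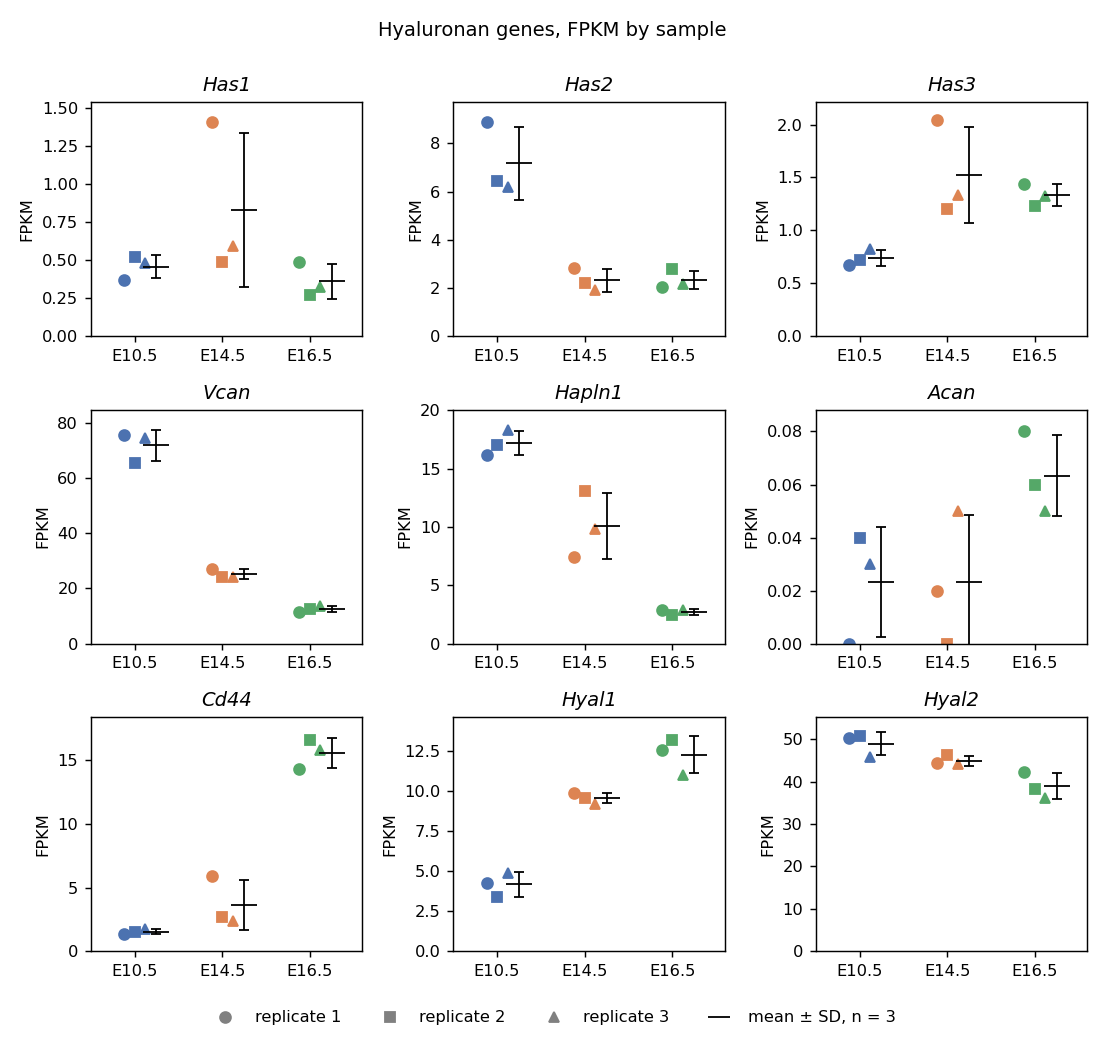
FPKM of the 9 genes in every sample (vertical axes, linear and starting at 0) by stage (horizontal axes). Symbols give the replicate and the black dash with bars gives mean ± SD of 3 samples. Has2, Vcan and Hapln1 were highest at E10.5, Cd44 and Hyal1 were highest at E16.5, Hyal2 stayed between 36.2 and 50.8 FPKM, and Acan reached 0.080 FPKM at most.

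To ask how transcripts of the enzymes that make hyaluronan differed between pNC and cornea, the 3 synthases were compared first. Synthase protein, its activity and hyaluronan itself were not measured. Coordinates of genes are those of RefSeq on GRCm38.p6. Has2 (chr15:56665627-56694546) encodes the main synthase of the embryo, without which the cardiac cushions do not form. Its FPKM was 8.91, 6.42 and 6.17 in the E10.5 samples, 2.84, 2.20 and 1.90 at E14.5, and 2.03, 2.77 and 2.18 at E16.5. All E10.5 samples thus lay above all corneal samples, while the values of the 2 corneal stages overlapped. Adjusted p-values here and below come from the edgeR quasi-likelihood test with Benjamini-Hochberg adjustment over 14771 genes, and a call needed an adjusted p under 0.05 and a log2 fold change of 1 or more in either direction. Has2 fell by 1.65 on the log2 scale from E10.5 to E14.5 (SE 0.20, adjusted p = 6.49e-05 by edgeR) and by 1.47 from E10.5 to E16.5 (SE 0.20, adjusted p = 6.16e-05 by edgeR). Between the corneal stages the log2 difference was 0.17, with a 95% confidence interval from -0.29 to 0.64 (adjusted p = 0.562 by edgeR). On chromosome 15, Has2 overlaps its antisense RNA Has2os by 4517 bases. Has2os had 1 to 13 counts per sample against 73 to 344 for Has2, and since the strand of the libraries is not stated, reads from the shared stretch cannot be told apart.

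Has3 (chr8:106870242-106882902), a synthase known to make shorter chains and to be active in epithelia, was scarce throughout and was higher in the corneas. Its FPKM was 0.67, 0.72 and 0.82 in pNC, 2.04, 1.20 and 1.33 in the E14.5 corneas and 1.44, 1.23 and 1.32 in the E16.5 corneas. Every corneal sample was above every pNC sample. The log2 fold change was 1.03 from E10.5 to E14.5 (SE 0.22, adjusted p = 0.00258 by edgeR), which was called. The value for E16.5 against E10.5, 0.9997 (SE 0.23, adjusted p = 0.00222 by edgeR), lay just under the fold minimum and was not called. The first of these was no longer called without replicate 1 of E14.5 (0.78, adjusted p = 0.00579 by edgeR) or without replicate 1 of E10.5 (0.97, adjusted p = 0.0125 by edgeR). The interval of the difference between E16.5 and E14.5 ran from -0.50 to 0.44 around a log2 value of -0.03.

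Has1 (chr17:17833691-17855589), the least expressed synthase, had 5 to 26 counts per sample and did not pass the filter on low counts. Its FPKM was 0.37, 0.52 and 0.48 in pNC, 1.41, 0.49 and 0.59 in the E14.5 corneas and 0.49, 0.27 and 0.32 in the E16.5 corneas. The single high value was that of replicate 1 of E14.5, and without it the 3 stages overlapped in a narrow band from 0.27 to 0.59. No test was made for Has1.

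The make-up of the synthase transcripts was described by sums and shares of FPKM, without a test. Summed over Has1, Has2 and Has3, the level was 8.36 ± 1.38 FPKM in pNC, 4.67 ± 1.41 in the E14.5 corneas and 4.02 ± 0.23 in the E16.5 corneas (SD, n = 3). Has2 made up 85.3% ± 3.7 of that sum in pNC, 50.5% ± 5.7 in the E14.5 corneas and 57.7% ± 6.8 in the E16.5 corneas. The E10.5 samples ran from 82.6% to 89.5% and the corneal samples from 45.2% to 64.9%, with no overlap. The share of Has3 was 9.04% ± 2.14 in pNC, 32.7% ± 2.0 in the E14.5 corneas and 33.2% ± 3.9 in the E16.5 corneas. Even so, Has2 had the highest FPKM of the synthases in each of the 9 samples.

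**Figure D2:**
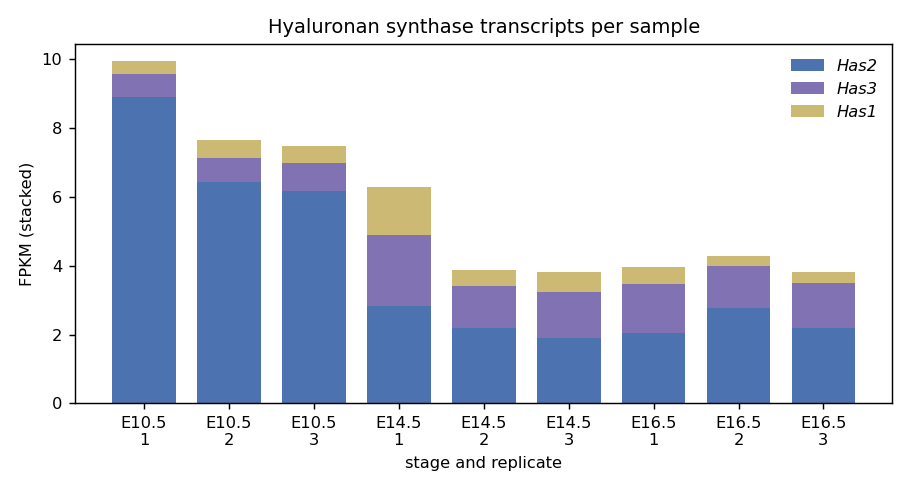
Stacked FPKM of Has2, Has3 and Has1 (vertical axis, starting at 0) in each sample, by stage and replicate (horizontal axis). The bars of E10.5 reach 7.47 to 9.95 FPKM and are mostly Has2, while those of the corneas reach 3.82 to 6.29 FPKM, with replicate 1 of E14.5 the tallest of them.

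The proteoglycan and link protein genes were examined next. Vcan (chr13:89655309-89743027) encodes versican, a large chondroitin sulfate proteoglycan of migratory embryonic tissues. Its FPKM was 75.6, 65.4 and 74.5 in pNC, 27.2, 24.2 and 24.1 in the E14.5 corneas and 11.6, 12.4 and 13.8 in the E16.5 corneas. The stages formed separate steps, and the replicates of each lay close together. Vcan fell by 1.46 on the log2 scale from E10.5 to E14.5 (SE 0.10, adjusted p = 1.19e-06 by edgeR) and by 2.34 from E10.5 to E16.5 (SE 0.10, adjusted p = 5.02e-08 by edgeR). The mean FPKM was 2.86-fold and 5.71-fold lower than at E10.5. From E14.5 to E16.5 the log2 difference was -0.88 (SE 0.10, adjusted p = 4.13e-04 by edgeR), past the p threshold but under the fold minimum. With libraries scaled by their totals alone it was -1.05 and was called.

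Hapln1 (chr13:89540529-89611832), which encodes the link protein that fastens lecticans to hyaluronan, was called lower at E16.5 but not at E14.5. Its FPKM was 16.2, 17.1 and 18.3 in pNC, 7.44, 13.1 and 9.82 in the E14.5 corneas and 2.85, 2.42 and 2.87 in the E16.5 corneas. The stages did not overlap, and the E14.5 samples were the most scattered. The log2 difference from E10.5 to E14.5 was -0.78 (SE 0.16, adjusted p = 0.00204 by edgeR), under the fold minimum. Hapln1 then fell by 1.73 from E14.5 to E16.5 (SE 0.18, adjusted p = 3.25e-04 by edgeR), and over the whole span from E10.5 it fell by 2.52 (SE 0.18, adjusted p = 7.11e-07 by edgeR). Mean FPKM at E16.5 was 6.34-fold lower than at E10.5. Hapln1 and Vcan are neighbours on chromosome 13 with 43476 bases and 0 protein-coding genes between them. The ratio of Vcan to Hapln1 FPKM was 4.19 ± 0.43 in pNC, 2.65 ± 0.91 in the E14.5 corneas and 4.66 ± 0.53 in the E16.5 corneas (SD, n = 3).

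Acan (chr7:79053226-79115099) encodes aggrecan, the lectican that gives cartilage its stiffness, and was close to absent. It was listed with 0 to 5 counts per sample, and the highest FPKM in any sample was 0.080. Hapln1 was thus measured at 2.42 to 18.3 FPKM with Vcan as the abundant lectican beside it. Summed FPKM of 6 other cartilage markers was 178 to 252 in pNC, 77.4 to 109 in the E14.5 corneas and 215 to 298 in the E16.5 corneas, and its members did not move together. Col2a1 and Sox9 were highest at E10.5, as Hapln1 was: Col2a1 lay between 115 and 178 FPKM in pNC and between 45.8 and 76.5 in the E16.5 corneas, and Sox9 between 12.7 and 14.7 and between 1.52 and 2.58. Col9a1 and Col11a1 were highest at E16.5, at 68.9 to 83.0 and 97.3 to 137 FPKM, Comp reached 0.28 at most, and Matn1 was at 0 in all E10.5 and E16.5 samples. The part of cartilage-forming tissue in the Hapln1 result was not tested. Acan did not pass the filter on low counts, and its level at all stages was too low for a comparison.

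Because Vcan and Cd44 are spliced into several forms, the abundance-weighted transcript length that RSEM gives per gene was also compared. For Vcan it was 10308, 9865 and 9811 bases in the E10.5 samples, 10573, 10383 and 10512 at E14.5, and 10508, 10183 and 9852 at E16.5. All values lay between the lengths of the 2 longest transcripts shown above. The E14.5 samples were all above the E10.5 samples, by 494 bases on average, with an exact two-sided permutation p = 0.10, the smallest that 3 against 3 samples allow, and 0.60 after adjustment over 6 comparisons. Of 3422 genes with several transcripts, 18% had lengths that did not overlap between E14.5 and E10.5. The E16.5 values overlapped with those of both earlier stages, where 22.8% of such genes had no overlap between E16.5 and E10.5 and 13.4% none between E16.5 and E14.5. For Cd44, the stage means were 4489 ± 85, 4492 ± 56 and 4518 ± 69 bases (SD, n = 3), and all 3 stages overlapped.

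**Figure D3:**
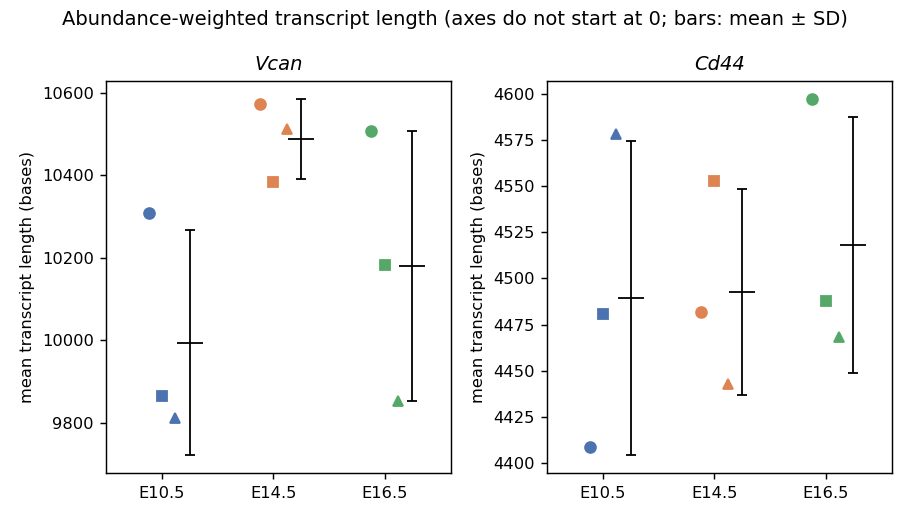
Abundance-weighted transcript length in bases (vertical axes, not starting at 0) of Vcan and Cd44 by stage (horizontal axes), with a symbol for each replicate and mean ± SD of 3 samples. For Vcan the E14.5 samples, from 10383 to 10573 bases, lie above the E10.5 samples, from 9811 to 10308 bases, and for Cd44 the stages overlap.

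Cd44 (chr2:102811141-102901669), the receptor, had the highest log2 fold change of the 7 tested genes. Its FPKM was 1.33, 1.51 and 1.74 in pNC, 5.88, 2.67 and 2.35 in the E14.5 corneas and 14.3, 16.6 and 15.8 in the E16.5 corneas. The stages did not overlap, but replicate 1 of E14.5 was more than 2 times as high as either other E14.5 sample. Cd44 rose by 1.23 on the log2 scale from E10.5 to E14.5 (SE 0.31, adjusted p = 0.00594 by edgeR), by 2.27 from E14.5 to E16.5 (SE 0.27, adjusted p = 4.84e-04 by edgeR) and by 3.50 from E10.5 to E16.5 (SE 0.30, adjusted p = 1.97e-06 by edgeR). Mean FPKM at E16.5 was 10.2-fold that at E10.5. Without replicate 1 of E14.5 the first step was 0.71 (adjusted p = 0.00221 by edgeR), under the fold minimum. The epithelial and keratocyte marker sums given above were higher at each later stage and were likewise highest within E14.5 in replicate 1, and their part in the Cd44 result was not tested. The summed FPKM of 7 leukocyte markers, cells in which Cd44 is also known to be abundant, was 26.3 to 28.6 in pNC, 143 to 194 in the E14.5 corneas and 28.2 to 40.9 in the E16.5 corneas. Most of the E14.5 sum was S100a8, at 73.4 to 115 FPKM. Lyz2 was also highest at E14.5, at 18.1 to 50.3 FPKM, and lay between 7.88 and 11.2 at the other stages. Csf1r, at 11.8 to 12.9, and Adgre1, at 2.95 to 5.52, were likewise highest in the E14.5 samples. Mpo lay between 1.37 and 28.1 at E14.5. Ptprc lay between 0.71 and 1.62 and Cd68 between 3.90 and 7.16 over all 9 samples. The part of leukocytes in the Cd44 result was not tested. Vcan FPKM was 47.6 ± 8.0 times that of Cd44 in pNC, 7.98 ± 2.97 times in the E14.5 corneas and 0.808 ± 0.062 times in the E16.5 corneas (SD, n = 3).

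The hyaluronidase genes were compared next. Hyal1 (chr9:107576950-107581699), the lysosomal enzyme that cuts hyaluronan into small pieces, had an FPKM of 4.27, 3.37 and 4.93 in pNC, 9.88, 9.61 and 9.24 in the E14.5 corneas and 12.6, 13.3 and 11.0 in the E16.5 corneas. The stages did not overlap. Hyal1 rose by 1.17 on the log2 scale from E10.5 to E14.5 (SE 0.15, adjusted p = 9.38e-05 by edgeR) and by 1.69 from E10.5 to E16.5 (SE 0.15, adjusted p = 2.79e-06 by edgeR). The step from E14.5 to E16.5 was 0.52 (SE 0.14, adjusted p = 0.0158 by edgeR), under the fold minimum. Hyal1 overlaps Hyal3 by 404 bases and Naa80 by 1031 bases on chromosome 9, and Hyal1 and Hyal3 had fractional counts in all 9 samples, so the split of reads between Hyal1 and Hyal3 is uncertain. Naa80 had whole counts in all 9 samples.

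Hyal2 (chr9:107567873-107572778), a hyaluronidase anchored at the cell surface that cuts long chains, lies 4171 bases from Hyal1. Its FPKM was 50.4, 50.8 and 45.8 in pNC, 44.5, 46.2 and 44.1 in the E14.5 corneas and 42.3, 38.3 and 36.2 in the E16.5 corneas. It was far more abundant than Hyal1 at every stage and its levels moved little. The log2 differences were -0.14 from E10.5 to E14.5, with a 95% interval from -0.31 to 0.04 (adjusted p = 0.156 by edgeR), and -0.18 from E10.5 to E16.5, with an interval from -0.36 to -0.01 (adjusted p = 0.0580 by edgeR). Between E14.5 and E16.5 the interval ran from -0.22 to 0.13 (adjusted p = 0.696 by edgeR). With libraries scaled by their totals, the difference from E10.5 to E16.5 was -0.33 (adjusted p = 0.00364 by edgeR), still far from the fold minimum. The ratio of Hyal2 to Hyal1 FPKM was 12.1 ± 2.9 in pNC, 4.69 ± 0.17 in the E14.5 corneas and 3.18 ± 0.25 in the E16.5 corneas (SD, n = 3).

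**Figure D4:**
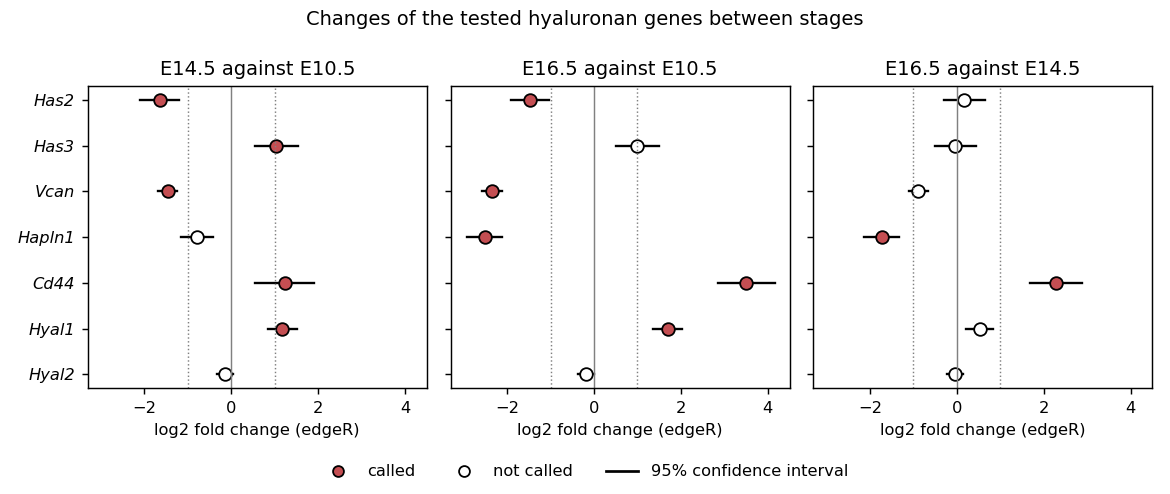
Log2 fold change (horizontal axes) of the 7 tested genes in the 3 pairs of stages, from the edgeR fit over all 9 samples, with 95% confidence intervals as lines. Filled points were called (adjusted p under 0.05 and past the dotted lines at a log2 value of 1 in either direction); Cd44 has the highest value, 3.50, and Hapln1 the lowest, -2.52, both from E10.5 to E16.5.

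Counted together, 7 of the 9 genes passed the filter on low counts, and Has1 and Acan did not. From E10.5 to E14.5, 3 were called higher (Has3, Cd44 and Hyal1) and 2 lower (Has2 and Vcan), where 13.6% of all tested genes were called higher and 7.97% lower. From E10.5 to E16.5, 2 were called higher (Cd44 and Hyal1) and 3 lower (Has2, Vcan and Hapln1), against 19.4% and 15.4% of all tested genes. From E14.5 to E16.5, 1 was called higher (Cd44) and 1 lower (Hapln1), against 6.26% and 5.47%. The median log2 fold change of the 7 genes was -0.14, -0.18 and -0.03 in the same order, and that of all tested genes was 0.01, 0.00 and -0.02. By the p threshold alone, 3 members were higher and 3 lower from E10.5 to E14.5 (28.9% and 27.5% of all tested genes), 3 and 3 from E10.5 to E16.5 (35.2% and 34.7%), and 2 and 2 from E14.5 to E16.5 (17.5% and 17.5%). Lack of overlap in FPKM was frequent among all tested genes, at 61% from E10.5 to E14.5, 77.2% from E10.5 to E16.5 and 53.2% from E14.5 to E16.5. By the NOISeq criterion recomputed from FPKM, no member was called higher from E10.5 to E14.5 and 1 (Vcan) was called lower, against 4.94% and 2.81% of genes. By the same criterion Cd44 and Hyal1 were called higher and Has2, Vcan and Hapln1 lower from E10.5 to E16.5 (8.91% and 10.1% of genes), and Cd44 higher and Hapln1 lower from E14.5 to E16.5 (2.02% and 2.12% of genes). Without replicate 1 of E14.5, 1 gene (Hyal1) in place of 3 was called higher from E10.5 to E14.5.

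The order of the levels within each stage, by FPKM, also turned over. At E10.5 it was Vcan, Hyal2, Hapln1, Has2, Hyal1, Cd44, Has3, Has1 and Acan, and no neighbours in this order overlapped between samples. At E14.5 Hyal2 led, followed by Vcan, Hapln1, Hyal1, Cd44, Has2, Has3, Has1 and Acan, and the samples of Hapln1 and Hyal1, of Cd44 and Has2, of Has2 and Has3 and of Has3 and Has1 overlapped. At E16.5 the order was Hyal2, Cd44, Vcan, Hyal1, Hapln1, Has2, Has3, Has1 and Acan, with overlap between Vcan and Hyal1 and between Hapln1 and Has2. Cd44 thus moved from the sixth place to the second, at 15.6 ± 1.2 FPKM (SD, n = 3).

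Around these 9 genes, 46 further genes of the pathway were followed, of which 34 were tested. From E10.5 to E14.5, 4 of them were called higher and 8 lower, where 13.6% of all tested genes were called higher and 7.97% lower. From E10.5 to E16.5, 7 were called higher and 11 lower, against 19.4% and 15.4% of all tested genes. From E14.5 to E16.5, 1 was called higher and 4 lower, against 6.26% and 5.47%. The median log2 fold change of the 34 was -0.02, -0.13 and 0.08 in the same order. In at least 1 comparison, 21 were called. The share of all tested genes called in at least 1 comparison was not counted, so this number has no reference beside it. The called genes described by name below reached a mean of 5 FPKM at some stage.

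Of 8 enzymes that make the sugar precursors, all tested, 1 was called, Gfpt2. Gfpt2 had a mean FPKM of 11.2 ± 0.6 in pNC, 2.57 ± 0.82 in the E14.5 corneas and 1.33 ± 0.11 in the E16.5 corneas (SD, n = 3). The log2 difference was -2.14 (SE 0.19, adjusted p = 7.95e-06 by edgeR) from E10.5 to E14.5 and -2.91 (SE 0.21, adjusted p = 6.55e-07 by edgeR) from E10.5 to E16.5. Of the other 7, 6 had risen from E10.5 to E16.5 past the p threshold without the fold minimum, where 35.2% of all tested genes had. Among these was Gfpt1, which rose from 15.3 ± 0.8 to 26.0 ± 1.0 FPKM (log2 fold change 0.91, SE 0.08, adjusted p = 2.14e-06 by edgeR). The median of the 8 enzymes was a log2 value of 0.62. For some of the 6, FPKM at E10.5 and E16.5 overlapped. With libraries scaled by their totals, the median of all tested genes in this comparison moved from 0.00 to -0.15. The count of 6 is not given with that scaling.

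Of the 14 other lecticans, link proteins and hyaluronan-binding proteins, 6 were tested. From E10.5 to E16.5, 3 of these were called lower, each with a mean under 5 FPKM at all stages, and the other 3 were not called. Of all tested genes, 15.4% were called lower in this comparison and 19.4% higher. Of the 7 other receptors, 3 were called higher and 3 lower from E10.5 to E16.5. Hmmr, a hyaluronan-binding protein that also acts at the mitotic spindle, fell from 27.9 ± 2.6 FPKM at E10.5 to 10.4 ± 1.3 at E16.5 (SD, n = 3), a log2 fold change of -1.27 (SE 0.11, adjusted p = 2.09e-06 by edgeR). Stab1, a scavenger receptor of macrophages and sinusoidal endothelium, fell from 17.7 ± 4.8 to 7.02 ± 1.19 FPKM (log2 fold change -1.18, SE 0.20, adjusted p = 2.62e-04 by edgeR). The sum of 5 vascular endothelial markers lay between 75.7 and 132 FPKM in pNC and between 22.6 and 34.6 in the E16.5 corneas, where Kdr lay between 21.7 and 29.3 and none of the other 4 was above 1.85, and its part in the Stab1 result was not tested. Tlr2, a receptor of innate immunity reported to sense hyaluronan fragments, rose from 1.12 ± 0.25 to 5.24 ± 0.71 FPKM (log2 fold change 2.37, SE 0.26, adjusted p = 1.32e-05 by edgeR).

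Of the 10 other turnover enzymes, 6 were tested, and 3 of these were called higher and 1 lower from E10.5 to E16.5. Of all tested genes, 19.4% were called higher and 15.4% lower. Hexa encodes part of a lysosomal enzyme that trims hyaluronan fragments. Hexa rose from 25.4 ± 3.7 FPKM at E10.5 to 47.7 ± 2.7 at E16.5 (SD, n = 3; log2 fold change 1.06, SE 0.13, adjusted p = 3.38e-05 by edgeR). Hyal3 rose from 3.47 ± 0.80 to 6.38 ± 0.96 FPKM (log2 fold change 1.01, SE 0.21, adjusted p = 0.00145 by edgeR), with the reads it shares with Hyal1 as a limit. Neither Hexa nor Hyal3 was called with libraries scaled by their totals (log2 fold changes 0.91 and 0.86), with limma or by the NOISeq criterion. The Hyal3 call was also lost without replicate 2 (0.86) or 3 (0.99) of E10.5 or replicate 2 of E16.5 (0.90), and that of Hexa without replicate 2 (0.99) or 3 (0.996) of E10.5. Hyal1 was thus called higher in E16.5 corneas than in pNC by all of these settings and Hexa by some of them. The surface hyaluronidase gene Hyal2 was not called. Gusb, another of the 6 turnover enzymes tested, was not called either. Its mean FPKM was 20.25 ± 2.83 at E10.5 and 19.9 ± 3.5 at E16.5 (log2 fold change 0.13, SE 0.15, adjusted p = 0.478 by edgeR).

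All 7 proteases known to cut lecticans were tested. From E10.5 to E14.5, 5 were called lower and 1 higher, where 7.97% of all tested genes were called lower and 13.6% higher. From E10.5 to E16.5, 3 were called lower and 1 higher, against 15.4% and 19.4% of all tested genes. From E14.5 to E16.5, 3 were called lower and 1 higher, against 5.47% and 6.26%. Adamts1, Adamts4, Adamts9 and Adamts15 are secreted metalloproteases that can cleave versican or aggrecan. Adamts1 had a mean FPKM of 14.2 ± 4.1 in pNC, 5.75 ± 0.64 in the E14.5 corneas and 4.74 ± 0.32 in the E16.5 corneas (SD, n = 3), and was lower at both corneal stages (log2 fold changes -1.32 and -1.44, adjusted p = 1.70e-04 and 4.74e-05 by edgeR). Adamts15 had 7.50 ± 1.13, 2.42 ± 1.42 and 0.34 ± 0.17 FPKM at the 3 stages, and the log2 difference between E16.5 and E10.5 was -4.31 (SE 0.50, adjusted p = 2.00e-05 by edgeR). Adamts9 did not follow a single direction, with 6.93 ± 0.24 FPKM in pNC, 1.51 ± 0.38 in the E14.5 corneas and 4.31 ± 0.75 in the E16.5 corneas. It fell by 2.22 on the log2 scale (SE 0.18, adjusted p = 3.49e-06 by edgeR) and then rose by 1.68 (SE 0.18, adjusted p = 3.51e-04 by edgeR). Adamts4 fell from 6.52 ± 0.87 to 2.84 ± 0.41 FPKM between E10.5 and E14.5 (log2 fold change -1.21, SE 0.20, adjusted p = 4.87e-04 by edgeR), and its value at E16.5 was 3.71 ± 0.93.

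**Figure D5:**
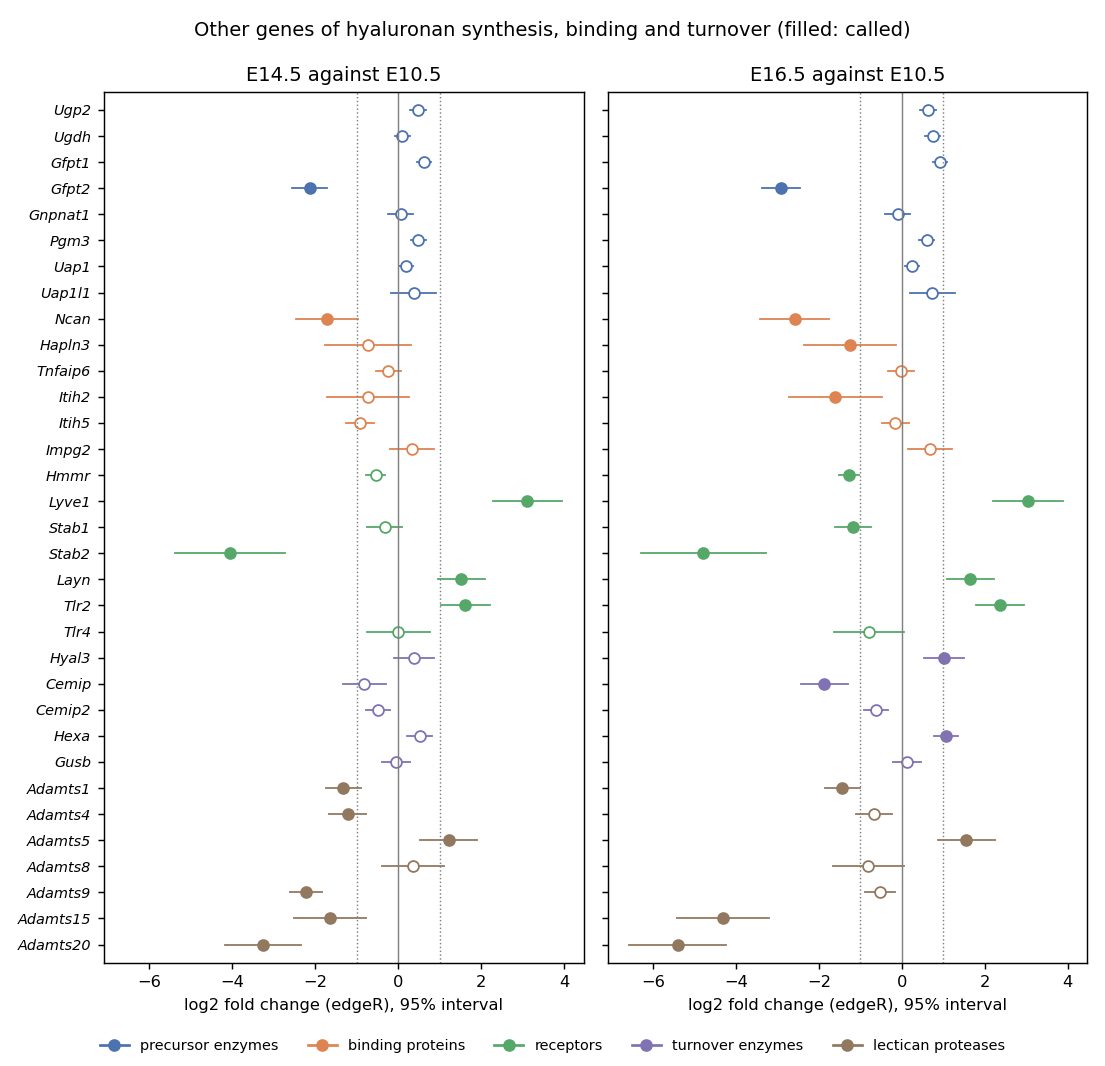
Log2 fold change (horizontal axes, with 95% confidence intervals) of tested genes of the wider pathway list, coloured by role, from E10.5 to E14.5 and from E10.5 to E16.5. Filled points were called and dotted lines mark a log2 value of 1 in either direction; on the right, Adamts15 lies at -4.31, Gfpt2 at -2.91 and Tlr2 at 2.37.

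Finally, the genes whose levels ran most like those of each member were listed, by Pearson's r of log2(FPKM + 1) over the 9 samples among 10941 other genes with a mean of at least 5 FPKM at some stage. With 3 stages that differ widely, high values are frequent, and they are given as a description. For Has2, the closest were Lifr (r = 0.979), Gata2 (r = 0.978) and Uchl1 (r = 0.977). For Vcan, they were Pctp (r = 0.996), Mtch2 (r = 0.995) and Dnajb6 (r = 0.995), and 1388 genes had an r of at least 0.95. Among the closest to Hapln1 were Hnrnpa3 and Ckap5 (each r = 0.998), and 1456 genes had an r of at least 0.95, the most for any member compared. That number was 88 for Has2, 288 for Cd44 and 595 for Hyal1. Cd44 ran closest to Upb1 (r = 0.994), Adgrg6 (r = 0.993) and Ehf (r = 0.991), the last an epithelial transcription factor gene. Hyal1 ran closest to Zfr2 (r = 0.989), Gfpt1 (r = 0.989) and Dennd4c (r = 0.988), of which Gfpt1 is a precursor enzyme of the wider list with 15.3 ± 0.8, 23.7 ± 0.7 and 26.0 ± 1.0 FPKM at the 3 stages (SD, n = 3). For Hyal2, they were Cisd1 (r = 0.969), Trmt61b (r = 0.965) and Msto1 (r = 0.959), and only 7 genes had an r of at least 0.95.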

How the data were processed

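RNA-Seq was analysed in 9 samples, 3 for each of E10.5, E14.5 and E16.5. The authors mapped reads with Bowtie 2 and HISAT to GRCm38 and quantified genes with RSEM (versions not given in the sources used here). The deposited expected counts are RSEM estimates that are not normalized, and the authors derived the deposited FPKM by scaling counts to transcript length and to the mapped fragments of the sample. The deposited length per gene, in bases, is the mean over its transcripts weighted by abundance. Genes that a sample does not list were set to 0 there. Stage and replicate came from the labels. Symbols were matched through Entrez Gene identifiers to RefSeq (19312 of 19369 identifiers).

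Expected counts were rounded and fitted with edgeR 4.0.16 in R 4.3.3 (TMM, filterByExpr by stage, quasi-likelihood, all 9 samples, 14771 genes). Lengths were compared with an exact permutation test. Counting error is small for all but rare transcripts. Samples within a stage differed by 2.93 to 26.3 in chi-square per degree of freedom, so none was the same library sequenced again. This check cannot tell separate tissue pools from repeated preparations of the same pool. Nothing states that replicates came from separate litters, so p-values measure the spread between these pools. Alternatives were DESeq2 1.42.0, limma 3.58.1 on log2(FPKM + 1) and log2(FPKM + 0.1), other scalings and filters, no fold minimum, a replicate block, each sample left out, and the NOISeq criterion of the study recomputed from FPKM (zeros as 0.01, probability of at least 0.8, absolute log2 ratio of at least 1) in Python 3.11.15.

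All 9 members are named. Of the wider list, genes called in at least 1 comparison with a mean FPKM of at least 5 at some stage are named. Gfpt1 and Gusb, which were not called, are given beside them. For likeness, the 3 genes with the highest r are named for each member with a mean of at least 5 FPKM. Members and lists were chosen with earlier results of these data known. Has2 and Has3 had no entry in the promoter table used. Results of a few genes that these rules would name are not reported here.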

Additional observations from a re-analysis of the deposited data

How the results depend on the processing

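Of 21 comparisons of tested members, 11 kept their call and direction under all alternatives, of which there were up to 20 for each. For members called higher from E10.5 to E14.5, limma on log2(FPKM + 1) gave 1 with either filter and the NOISeq criterion gave 0 in place of 3, and for those called lower NOISeq gave 1 in place of 2, since Has2 fell just short of its probability limit (0.793). From E14.5 to E16.5, members called higher were 2 without a fold minimum, and those called lower were 2 without a fold minimum and 2 with library totals. Library totals moved the median log2 fold change of all genes to 0.03, -0.15 and -0.19, from 0.01, 0.00 and -0.02 with TMM.

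For the wider list from E10.5 to E14.5, genes called higher were 2 with limma on log2(FPKM + 1) and either filter, 0 with NOISeq and 9 without a fold minimum, and those called lower were 5 with that limma fit and 3 with NOISeq. From E10.5 to E16.5, higher calls were 3 with the same fit, 2 with NOISeq and 14 without a fold minimum, and lower calls were 7 with it and 6 with NOISeq. From E14.5 to E16.5, higher calls were 0 with NOISeq and 8 without a fold minimum, and lower calls were 1 with the same fit, 0 with NOISeq and 7 without a fold minimum. With limma on log2(FPKM + 0.1), higher and lower calls were 4 and 7, 5 and 9, and 1 and 4 in the 3 comparisons. The cause was not tested.

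With each sample left out, members called higher and lower were 1 to 3 and 2 from E10.5 to E14.5, 2 to 3 and 3 from E10.5 to E16.5, and 1 and 1 from E14.5 to E16.5, and those of the wider list were 3 to 5 and 8 to 9, 5 to 7 and 9 to 11, and 1 to 2 and 1 to 4. The drop from 3 members to 1 came without replicate 1 of E14.5, which also raised the last higher count to 2, and the last lower count was 2 without replicate 2 of E14.5 and 1 without replicate 3 of E14.5 or replicate 1 of E16.5. The log2 difference of Has3 between E16.5 and E14.5 ran from -0.19 to 0.22, above 0 without replicate 1 of E14.5 or replicate 2 of E16.5 (0.00972), and that of Hyal2 from -0.098 to 0.00761, above 0 without replicate 3 of E16.5. The Cd44 length difference ran from -37.0 to 47.6 bases from E10.5 to E14.5, from -11.5 to 73.1 from E10.5 to E16.5 and from -14.2 to 55.6 from E14.5 to E16.5, and with lengths implied by counts over FPKM the first was -1.98.

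No consistent pairing by replicate number was seen. Deviations of same-numbered samples correlated at -0.035 on average (9 pairs, from -0.33 to 0.30). Those of differently numbered samples correlated at 0.020 (18 pairs, from -0.24 to 0.24). These few pairs cannot show whether some same-numbered samples shared a litter or batch. With the replicate block 3 members were called higher and 2 lower from E10.5 to E14.5, as without it. Depth limits Has1 and Acan, which had at most 26 and 5 counts.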
